A study of Fundulus heteroclitus with 15 samples.

Results

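Estrogen receptors alpha and beta A were followed in the liver of adult female mummichog (Fundulus heteroclitus), a small killifish of Atlantic salt marshes, after exposure to EE2 (17α-ethinylestradiol), a synthetic estrogen used in contraceptive pills. Probes were taken by name: every probe whose name held the words estrogen receptor, without those named for estrogen-related receptors or with estrogen receptor-binding, written with a hyphen. This gave 5 of the 7152 probes on the array, and 3 of the 3410 gene names on it: 2 named estrogen receptor alpha, 2 named estrogen receptor BetaA, and 1 named estrogen receptor binding protein with a human gene as its source. The last has no hyphen in its name and so was taken by the rule. It is not named as a receptor and is described apart from the other 4. No probe taken by this rule was named for a second beta receptor.

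Each of the 15 samples was liver RNA of adult females on a 1-colour Agilent array labelled with Cy3. There were 5 control samples with no EE2, 5 samples from fish held in water with 50 ng/L EE2 and 5 from fish held at 250 ng/L, both for 14 days. The labels call the 5 samples of a group biological replicates and do not say whether an array held RNA of 1 fish or of several, so p-values measure the spread between these arrays. Slide 1 carried 2 control, 2 50 ng/L and 3 250 ng/L arrays, and slide 2 carried 3, 3 and 2.

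Estrogen receptors are transcription factors of the nuclear receptor family. On binding estrogen they are released from a complex with the chaperone HSP90, pair up, bind DNA and recruit coregulators. In the liver of egg-laying fish they switch on the genes for vitellogenin, the egg yolk precursor, and for egg envelope proteins. In rainbow trout, the liver mRNA of receptor alpha is itself raised by estrogen. Fish carry beta receptors from more than one gene, and liver commonly expresses them beside alpha.

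The probes are named here by receptor and by the first base of the stretch given in the probe name. Alpha probe 1256 covers bases 1256 to 1305 of its record, 50 bases in length. Alpha probe 1867 covers bases 1867 to 1919, 53 bases. The beta A probes cover bases 2763 to 2821 (59 bases) and 2898 to 2955 (58 bases). The binding protein probe covers bases 3 to 59, 57 bases. The records of the receptor probes, 1 for each receptor, had no match by accession in the gene table used here (0 of 2), so no genome position is given. Probe sequences were not used here.

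All 5 probes were measured well on every array. Both spots of each probe were well above background on all 15 arrays, none was saturated, and none was an outlier. The largest gap between the 2 spots of a member on one array was 0.28 on the log2 scale. Raw spot signal over local background was between 5.74 and 21.6 for alpha probe 1256 and between 102 and 353 for alpha probe 1867. It was between 12.8 and 78.6 for beta A probe 2763, and between 10.2 and 67.7 for beta A probe 2898. The binding protein probe had the lowest value of the 5 probes, with a range of 3.51 to 24.2. Of 38 probes for hepatocyte markers, 36 were measured well enough to be tested. So were 6139 of all 7152 probes and 62 of 62 exocrine pancreas probes, so this count cannot check the tissue label.

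Levels below are log2 processed signals relative to the 75th percentile of the same array, averaged over the 2 spots of a probe. A level is read only against the same probe on another array, since probes differ in brightness.

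Receptor alpha varied widely within each group. On alpha probe 1256 the controls had levels of -1.76 and -1.72 on slide 1 and of -3.03, -3.64 and -1.70 on slide 2. At 50 ng/L the levels were -2.67 and -2.22 on slide 1 and -1.39, -0.90 and -1.18 on slide 2. At 250 ng/L they were -1.27, -0.68 and -2.99 on slide 1 and -2.54 and -1.74 on slide 2. The lowest arrays were 2 controls of slide 2, and the highest was a 250 ng/L array of slide 1. All 3 groups overlapped.

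On alpha probe 1867 the controls had levels of 2.93 and 2.30 on slide 1 and of 1.02, 0.61 and 1.97 on slide 2. The 50 ng/L arrays had 1.19 and 2.94 on slide 1 and 2.46, 2.64 and 2.75 on slide 2. The 250 ng/L arrays had 1.92, 2.74 and 1.0 on slide 1 and 1.21 and 2.18 on slide 2. The lowest array was again a control of slide 2, and the next lowest were a 250 ng/L array of slide 1 and another control of slide 2. The groups overlapped, and 4 of the 5 arrays at 50 ng/L were in the upper part of the range, with the remaining one near the bottom.

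Receptor beta A was much steadier. On beta A probe 2763 the controls had -0.75 and -1.19 on slide 1 and -0.27, -0.59 and -0.40 on slide 2. The 50 ng/L arrays had -0.53 and -0.74 on slide 1 and -0.63, -0.64 and -0.82 on slide 2. At 250 ng/L the values were -0.88, -1.10 and -0.83 on slide 1 and -0.81 and -0.32 on slide 2. The controls held both the highest and the lowest array, and the exposed arrays lay between them.

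On beta A probe 2898 the control levels were -0.81 and -1.34 on slide 1 and -0.54, -0.87 and -0.71 on slide 2. The levels at 50 ng/L were -0.82 and -1.01 on slide 1 and -0.94, -0.89 and -1.09 on slide 2. The levels at 250 ng/L were -1.55, -1.30 and -0.97 on slide 1 and -1.09 and -0.79 on slide 2. The lowest array was at 250 ng/L on slide 1, the highest was a control of slide 2, and the groups overlapped.

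**Figure D1:**
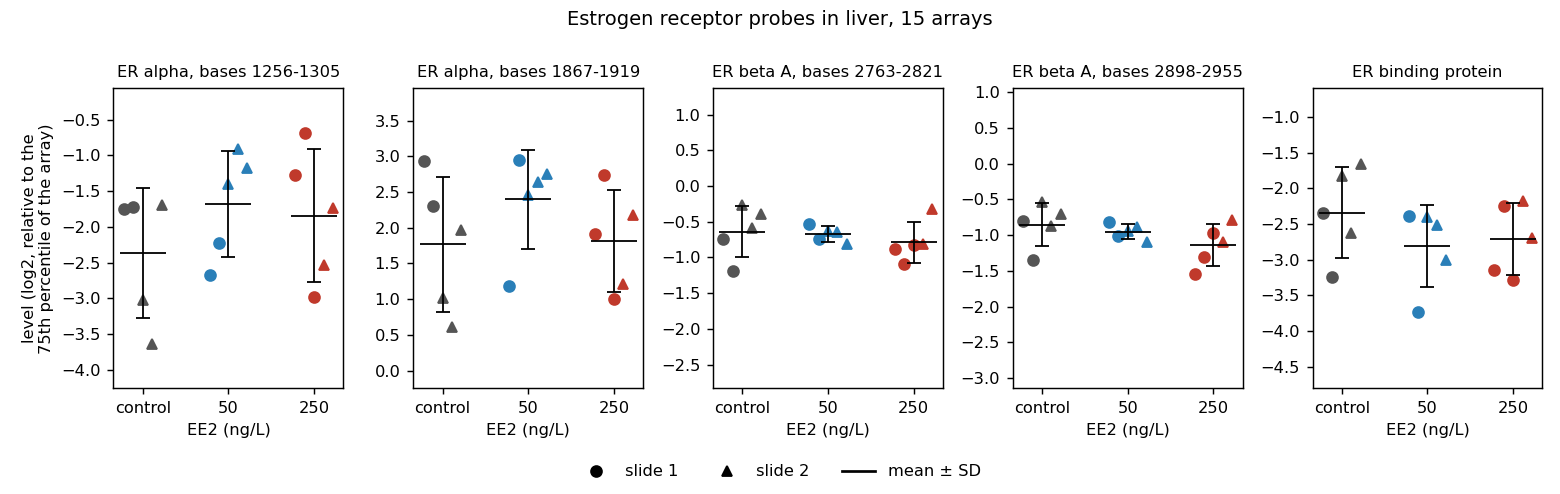
Level of each of the 5 probes (log2, relative to the 75th percentile of the array) in control, 50 ng/L and 250 ng/L EE2 arrays. Circles are arrays of slide 1, triangles arrays of slide 2, and bars give the group mean ± SD of 5 arrays; every panel spans the same height, and the alpha probes spread over more than the beta A probes while the groups overlap in all panels.

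The span from the lowest to the highest array was 2.96 log2 units (7.79-fold) for alpha probe 1256 and 2.33 (5.03-fold) for alpha probe 1867. For the beta A probes it was 0.92 (1.90-fold) and 1.01 (2.02-fold). Within groups, the pooled SD was 0.87 and 0.79 for the alpha probes, and 13.6% and 16.8% of the 6139 tested probes had a larger one. The SD was 0.27 and 0.25 for the beta A probes, and 89.6% and 92.7% of tested probes had a larger one. The median SD of all tested probes was 0.47. The 2 probes of a receptor moved together: over 15 arrays, with the mean of each group taken off, Pearson r was 0.846 between the alpha probes and 0.860 between the beta A probes. Both probes of a pair share their target and their arrays, so these values describe how well they repeat each other.

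At 50 ng/L, neither receptor passed the test against control. The mean of alpha probe 1256 was -2.37 ± 0.91 (SD, n = 5) in controls and -1.67 ± 0.74 at 50 ng/L, a difference of 0.69 ± 0.50 (SE), or 1.62-fold with a 95% confidence interval of 0.767 to 3.41. Alpha probe 1867 had 1.77 ± 0.94 in controls and 2.40 ± 0.70 at 50 ng/L, a difference of 0.63 ± 0.46 (SE), or 1.55-fold with an interval of 0.779 to 3.07. Both alpha probes thus stood above control by an amount smaller than the spread between arrays.

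Beta A probe 2763 had -0.64 ± 0.36 (SD) in controls and -0.67 ± 0.11 at 50 ng/L, 0.977-fold with an interval of 0.730 to 1.31. Beta A probe 2898 had -0.85 ± 0.30 and -0.95 ± 0.11, 0.937-fold with an interval of 0.709 to 1.24. The limma adjusted p (Benjamini-Hochberg over 6139 probes) was 0.999 for each of the 5 probes at this dose. None of the 5 was called at an adjusted p under 0.05, where 0.554% of all tested probes were.

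At 250 ng/L, again 0 of the 5 probes passed the test, where 2.7% of all tested probes did. Alpha probe 1256 averaged -1.84 ± 0.93 (SD), 1.44-fold the control value with a 95% interval of 0.682 to 3.03 and a limma adjusted p of 0.723. Alpha probe 1867 averaged 1.81 ± 0.71, 1.03-fold with an interval of 0.519 to 2.05 and a limma adjusted p of 0.978. The alpha probes thus did not share the size of their difference at this dose, though the intervals overlap over most of their width.

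For beta A at 250 ng/L, probe 2763 averaged -0.79 ± 0.29 (SD), 0.903-fold with an interval of 0.675 to 1.21 and a limma adjusted p of 0.815. Probe 2898 averaged -1.14 ± 0.30, 0.821-fold with an interval of 0.622 to 1.08 and a limma adjusted p of 0.584. On the log2 scale the interval ran from -0.57 to 0.27 for probe 2763 and from -0.69 to 0.12 for probe 2898. In bulk liver, fewer cells of a type and less RNA per cell cannot be told apart.

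Between the doses, 0 of the 5 probes passed, against 1.09% of all tested probes. That background was 67 probes; it was 0 with either slide alone and 34 without replicate 5 at 50 ng/L. Alpha probe 1256 differed by -0.17 ± 0.50 (SE) at 250 against 50 ng/L and alpha probe 1867 by -0.59 ± 0.46. The beta A probes differed by -0.11 ± 0.20 and -0.19 ± 0.19. With both doses averaged, 0 of 5 passed, against 1.53% of tested probes, and the alpha probes stood 0.61 ± 0.44 and 0.34 ± 0.40 above control. The order of group means was 50 ng/L, then 250 ng/L, then control for both alpha probes, and control, then 50 ng/L, then 250 ng/L for both beta A probes, and no neighbours in either order differed beyond their spread.

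**Figure D2:**
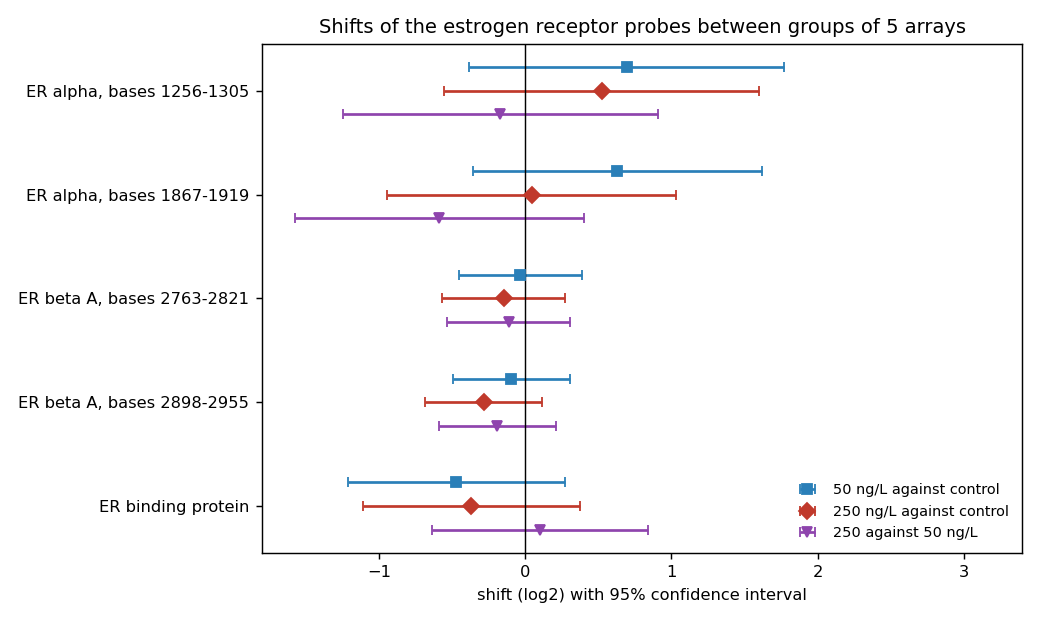
Difference between group means (log2) with its 95% confidence interval for each probe, for each dose set against control and for the higher dose set against the lower, from 5 arrays a group. Every interval includes 0, and the alpha intervals are wider than the beta A intervals.

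Averaging the 2 probes of each receptor gave 1 value per array. Receptor alpha averaged -0.30 ± 0.91 (SD, n = 5) in controls. Exposed arrays averaged 0.36 ± 0.65 at 50 ng/L and -0.02 ± 0.81 at 250 ng/L. The difference from control was 0.66 at 50 ng/L (two-sided exact permutation p = 0.19) and 0.28 at 250 ng/L (exact p = 0.579). Beta A averaged -0.75 ± 0.33, -0.81 ± 0.11 and -0.96 ± 0.27 in the same order. Its difference from control was -0.06 at 50 ng/L (exact permutation p = 0.706) and -0.22 at 250 ng/L (exact p = 0.278). Adjusted over the 6 comparisons of receptor means, the lowest p was 0.556; with 5 arrays against 5 the smallest possible p is 0.00794.

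The balance of the receptors was tested as alpha minus beta A within each array. It averaged 0.45 ± 1.09 (SD, n = 5) without EE2, 1.17 ± 0.72 at 50 ng/L and 0.95 ± 0.94 at 250 ng/L. The shift from control was 0.73 at 50 ng/L (exact permutation p = 0.222) and 0.50 at 250 ng/L (exact permutation p = 0.429). From 50 to 250 ng/L it was -0.23 (exact permutation p = 0.651), and the p adjusted over these 3 comparisons was at least 0.643. An unequal shift of alpha and beta A was therefore not detected with these arrays.

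Across slides, with group in the fit, 0 of the 5 probes differed at an adjusted p under 0.05, and 0% of all tested probes did (limma, 6139 probes). At an unadjusted p under 0.05, 5.13% of all tested probes and 0 of the 5 differed. Slide 2 stood -0.09 ± 0.44 (SE) and -0.35 ± 0.39 from slide 1 for the alpha probes and 0.29 ± 0.15 and 0.21 ± 0.15 for the beta A probes. The beta A differences were thus larger than their standard errors and did not pass the test (limma adjusted p of at least 0.861 for the 5 probes).

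The slides were also compared within each group. Among the controls, slide 2 stood -1.05 ± 0.64 (SE) from slide 1 on alpha probe 1256 and -1.42 ± 0.60 on alpha probe 1867. Among the 50 ng/L arrays the same difference was 1.29 ± 0.64 and 0.55 ± 0.60, opposite in sign. At 250 ng/L it was -0.49 ± 0.64 and -0.19 ± 0.60. The limma adjusted p was at least 0.328 for all 6 of these values, and 0.0977%, 0% and 0% of all tested probes were called within the 3 groups in the same order. On the beta A probes, slide 2 stood 0.55 ± 0.24 (SE) and 0.37 ± 0.26 from slide 1 among the controls. It stood -0.06 ± 0.24 and -0.06 ± 0.26 at 50 ng/L, and 0.37 ± 0.24 and 0.33 ± 0.26 at 250 ng/L. The limma adjusted p was at least 0.342 for these beta A values.

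With these opposite slide differences of alpha, its estimated 50 ng/L shift had opposite signs on the 2 slides. On slide 1, 50 ng/L stood -0.71 ± 0.70 (SE) from control on alpha probe 1256 and -0.55 ± 0.66 on alpha probe 1867. On slide 2 it stood 1.63 ± 0.57 (3.09-fold) and 1.42 ± 0.54 (2.67-fold) above control. The latter had unadjusted p of 0.0149 and 0.0223, and limma adjusted p of 0.727 and 0.782. In that comparison 0.342% of all tested probes were called, and 0.163% on slide 1. The share of all tested probes at an unadjusted p under 0.05 is not given for it. The beta A probes changed sign too. On slide 1 they stood 0.33 ± 0.27 (SE) and 0.16 ± 0.28 from control at 50 ng/L. On slide 2 they stood -0.28 ± 0.22 and -0.27 ± 0.23 from control.

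The difference between the slides in the 50 ng/L shift was tested directly. It was 2.34 ± 0.91 (SE) for alpha probe 1256 (unadjusted p = 0.0242, limma adjusted p = 0.316) and 1.97 ± 0.85 for alpha probe 1867 (unadjusted p = 0.0401, limma adjusted p = 0.351). None of the 5 was called, where 0.0326% of all tested probes were, and 13.3% of all tested probes reached an unadjusted p under 0.05 in it. For beta A the difference ran the other way, -0.62 ± 0.34 and -0.43 ± 0.36. At 250 ng/L the difference between slides was 0.56 ± 0.91 and 1.23 ± 0.85 for the alpha probes, and -0.18 ± 0.34 and -0.04 ± 0.36 for beta A, with 0 of the 5 called against 0.0163% of all tested probes.

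**Figure D3:**
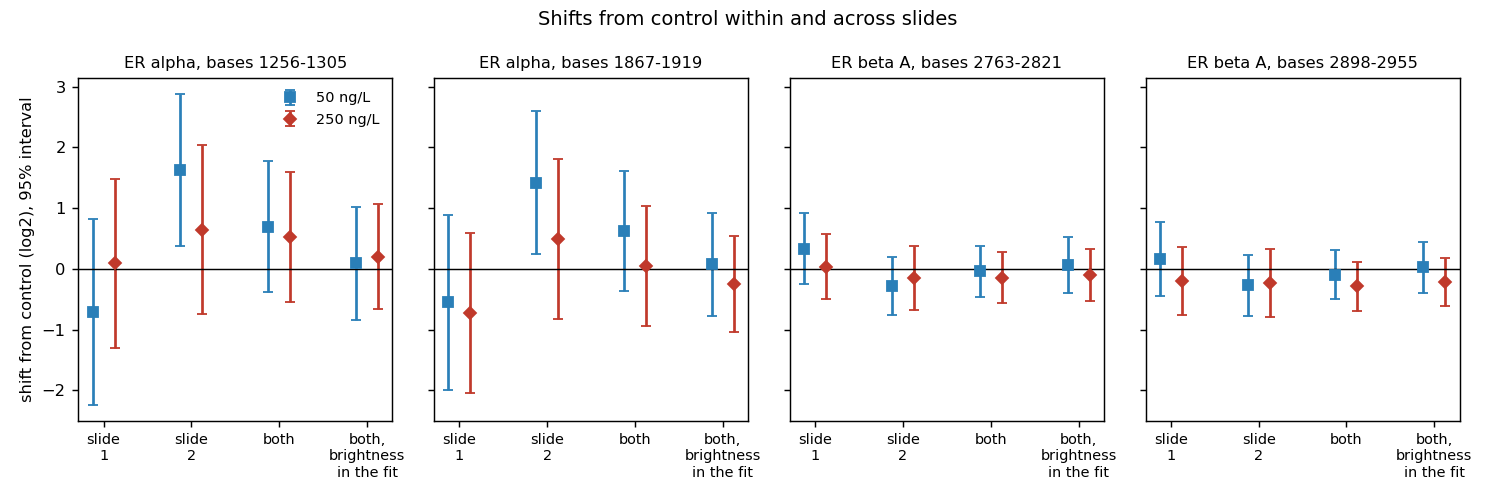
Shift from control (log2, 95% confidence interval) of the 4 receptor probes at 50 ng/L (squares) and 250 ng/L (diamonds), on slide 1, on slide 2, over both slides, and over both slides with array brightness in the fit. The 50 ng/L value of the alpha probes is below 0 on slide 1 and above 0 on slide 2. It is near 0 with brightness in the fit. At 50 ng/L the beta A probes are above 0 on slide 1 and below 0 on slide 2, by less than alpha.

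Array brightness moved with these differences. The 75th percentile of signal ran from 543 to 3575 over the 15 arrays, and its geometric mean was 1847 without EE2, 1047 at 50 ng/L and 1364 at 250 ng/L. Split by slide, it was 1429 and 2192 without EE2, 1912 and 700.5 at 50 ng/L, and 1118 and 1838 at 250 ng/L, slide 1 first. The brightest cell was thus the controls of slide 2 and the dimmest the 50 ng/L arrays of slide 2, the cells with the lowest and highest mean level of alpha probe 1256. The mean there was -2.79 and -1.16.

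Receptor alpha was lower on brighter arrays. Over 15 arrays with group means taken off, Pearson r with log2 brightness was -0.712 (permutation p = 0.0042, adjusted over 5 relations 0.021) and Spearman's rho was -0.629 (permutation p = 0.0117, adjusted 0.0586). It was -0.686 without the dimmest and the brightest array, both at 50 ng/L. Within slides, r was -0.900 over the 7 arrays of slide 1 and -0.434 over the 8 of slide 2. Since a level has brightness subtracted, part of such a relation can be arithmetic: a signal that did not follow brightness at all would have a slope of -1.

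Slopes were taken with group means kept. Per log2 unit of brightness, the level of the alpha probes changed by -0.75 and -0.69, and their unscaled signal changed by 0.25 and 0.31. Only 1.32% and 1.71% of tested probes had a lower slope, and the median slope was -0.0007. For beta A the slopes were 0.11 and 0.15. The mean of its probes had r of 0.434 with group means taken off (permutation p = 0.0547, adjusted 0.137). Of tested probes, 72.5% and 79.6% had a lower slope than the beta A probes. With group means kept, r was 0.340 and 0.462 for the beta A probes, and 86.8% and 94.2% of tested probes had a lower one.

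**Figure D4:**
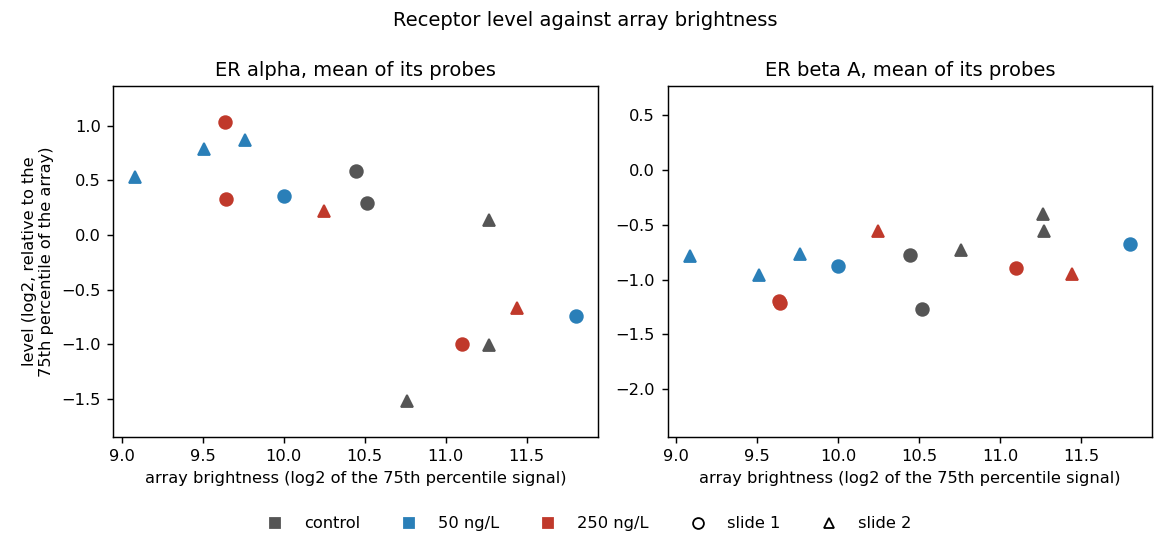
Mean level of the alpha probes (left) and of the beta A probes (right), log2 relative to the 75th percentile of the array, against log2 of that percentile, for 15 arrays coloured by group with circles for slide 1 and triangles for slide 2. Receptor alpha is lower on brighter arrays (r of -0.712 with group means taken off) and beta A is not.

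With brightness as a term in the fit, a setting added after these values were seen, the 50 ng/L shift of the alpha probes was 0.09 ± 0.43 (SE) and 0.07 ± 0.40. The 250 ng/L shift was 0.20 ± 0.40 and -0.25 ± 0.37. The slide difference in the 50 ng/L shift was 1.23 ± 1.07 (unadjusted p = 0.276) and 0.43 ± 0.84 (unadjusted p = 0.62). On slide 2, log2 brightness was 9.08 to 9.76 at 50 ng/L and 10.76 to 11.27 in controls, with no overlap. Dose and brightness thus cannot be fully told apart in this fit. The part of RNA amount, labelling or scanning in these values was not tested.

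Like the receptors, the binding protein probe passed no test. Its differences from control were the lowest of the 5 probes at both doses, and its slide difference was the highest. Its levels were -2.34 and -3.25 on slide 1 and -1.82, -2.63 and -1.66 on slide 2 in controls. The 50 ng/L levels were -2.39 and -3.73 on slide 1 and -2.40, -2.52 and -3.00 on slide 2. The 250 ng/L levels were -3.14, -2.24 and -3.28 on slide 1 and -2.17 and -2.69 on slide 2. The groups overlapped, with the highest levels in 2 controls of slide 2. Differences from control were -0.47 ± 0.35 (SE) at 50 ng/L and -0.37 ± 0.35 at 250 ng/L, with limma adjusted p of 0.999 and 0.719. Slide 2 stood 0.54 ± 0.26 above slide 1 (limma adjusted p = 0.861).

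The targets of the receptors responded on the same arrays. Of 17 probes for estrogen-responsive liver genes, 16 were tested. At a limma adjusted p under 0.05, 13 rose at 50 ng/L and 14 at 250 ng/L. In either direction, 0.554% and 2.7% of all tested probes were called at these doses. Median shifts of the 16 were 2.84 and 4.48, against -0.01 and -0.05 over all tested probes. The count of estrogen-responsive probes at 50 ng/L was 1 with only the 7 arrays of slide 1 and 9 with only the 8 of slide 2. It was 11 to 14 when 1 array was left out. Vitellogenin I, on its probe with the smallest p, rose by 5.96 ± 0.38 (SE) and 8.11 ± 0.38, and Vitellogenin A2 by 6.33 ± 0.56 and 8.82 ± 0.56. Zona pellucida sperm-binding protein 4, an egg envelope protein (probe at base 470), rose by 2.88 ± 0.41 and 5.36 ± 0.41. Other probes of these genes rose less. Those of Vitellogenin I rose by 3.08 to 3.91 at 50 ng/L and 4.01 to 5.60 at 250 ng/L. Those of Zona pellucida sperm-binding protein 4 rose by 2.31 to 2.80 and by 4.18 to 4.54. The mean level of the 16 was -0.29 to 0.71 without EE2, 2.31 to 3.91 at the lower dose and 4.48 to 5.47 at the higher. The groups did not overlap in this mean, and the share of all probes without overlap was not counted. Other probes named by the same rule were Vitellogenin (base 156, 8.92 ± 0.53 at 250 ng/L) and Vitellogenin II (bases 243 and 272, 7.48 ± 0.55 and 7.85 ± 0.65 at 250 ng/L). Some of these probes were dim in controls, which limits the size given for their rise. The mean control level was -6.28 for Vitellogenin A2, -4.44 for Vitellogenin and -4.24 for Vitellogenin II at base 243. At 50 ng/L the probe at base 272 did not pass (limma adjusted p = 0.0998). A further Vitellogenin II probe, at base 333, did not rise, with shifts of -0.07 and -0.24 at the lower and higher dose. Nor did the probe of Zona pellucida sperm-binding protein 3 at base 6, with -0.18 and -0.30.

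Receptor level was set against this target mean over arrays. With group means taken off, r was 0.418 for alpha (permutation p = 0.132, adjusted 0.22; rho 0.418, p = 0.143) and -0.146 for beta A (permutation p = 0.585; rho -0.104, p = 0.73). For alpha it was 0.339 without the 2 arrays farthest from the median of the target mean, 0.347 on slide 1 and 0.586 on slide 2. Alpha against beta A gave r of -0.416 (permutation p = 0.201, adjusted 0.251; rho -0.457, p = 0.132), -0.676 on slide 1 and -0.04 on slide 2. None of these 3 relations passed.

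In the other lists of the estrogen pathway, no probe passed the test with the settings used throughout. Of all tested probes, 0.554% were called at 50 ng/L and 2.7% at 250 ng/L. A count of 0 in lists this small is near those shares and says little about their members. Of estrogen-related receptors, orphan receptors close in sequence to the estrogen receptors, 2 of 4 probes were tested and 0 called at either dose. Estrogen-related receptor gamma stood 0.34 ± 0.35 (SE) from control at 50 ng/L and -0.37 ± 0.35 at 250 ng/L. Steroid hormone receptor ERR2 stood 0.34 ± 0.26 and 0.05 ± 0.26. Both probes were dim, with mean control levels of -7.11 for gamma and -5.33 for ERR2, which limits these values.

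Of 9 probes for other nuclear receptors, all tested, 0 were called at either dose, with median shifts of 0.10 and -0.03. The pregnane X receptor, a sensor of foreign chemicals and steroids, stood 0.52 ± 0.29 (SE) from control at 250 ng/L. Orphan nuclear receptor NR1D1, a repressor of the circadian clock, stood -0.63 ± 0.39.

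Among receptor chaperones and coregulators, 17 of 20 probes were tested and 0 called at either dose, with median shifts of 0.13 at both. Telomerase-binding protein p23, a co-chaperone that stabilises steroid receptors on HSP90, stood 0.77 ± 0.27 (SE) from control at 250 ng/L (limma adjusted p = 0.191). Heat shock protein HSP 90-beta (probe at base 436) stood -0.52 ± 0.28 (limma adjusted p = 0.462).

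For estrogen synthesis and breakdown, 23 of 26 probes were tested and 0 called at either dose, with median shifts of -0.16 and -0.24. Catechol O-methyltransferase, which methylates catechol estrogens, stood -0.62 ± 0.17 (SE) at 250 ng/L on its probe at base 465 (limma adjusted p = 0.0823) and -0.60 ± 0.23 on that at base 270 (limma adjusted p = 0.247). The count at 250 ng/L depended on the setting: the probe at base 465 was called with quantile normalization (limma adjusted p = 0.0338), with the authors' values (0.039), with array weights (0.0286) and without replicate 3 at 250 ng/L (0.0282).

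**Figure D5:**
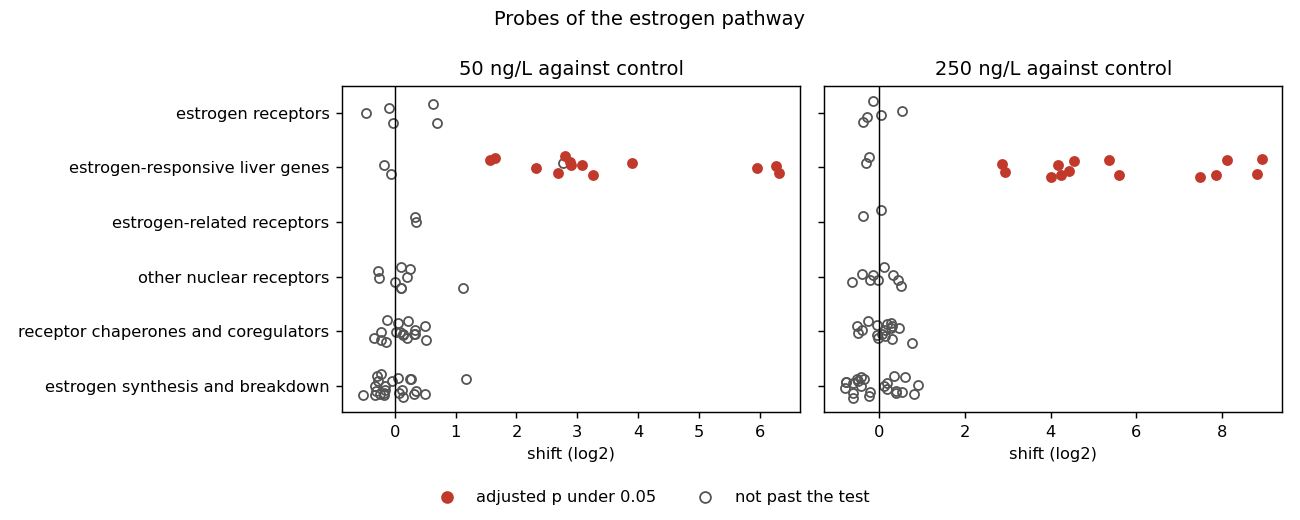
Shift from control (log2) of each tested probe in 6 lists at 50 ng/L (left) and 250 ng/L (right), with probes at a limma adjusted p under 0.05 filled and the others open; the 2 panels have their own horizontal scales. The filled points all lie in the estrogen-responsive liver genes, 13 at 50 ng/L and 14 at 250 ng/L.

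Markers of other cell types were set beside the receptors. The 62 exocrine pancreas probes, all tested, had median shifts of 1.0 and 1.1 at the 2 doses with 0 called, and their mean level ran from -2.38 to 0.69 without EE2, from -0.695 to 1.56 at the lower dose and from -0.30 to 2.08 at the higher. Of 13 tested red blood cell probes, 1 was called at 250 ng/L, where 2.7% of all tested probes were: Hemoglobin alpha-D chain, at -1.45 ± 0.35 (SE). The median shift of the 13 at that dose was -0.07, with 5 of them above 0 and the highest at 1.15. Of 36 tested hepatocyte probes, 1 was called at each dose, against 0.554% and 2.7% of all tested probes: Serotransferrin I, which binds iron in blood, rose by 2.93 ± 0.41 (SE) and 5.39 ± 0.41. The median shift of the 36 was 0.10 and 0.06 at the 2 doses, so most did not follow it. Hemoglobin alpha-D chain and Serotransferrin I were both named after their values were seen. No skeletal muscle (17 tested), ovary (4) or leukocyte (15) probe was called at either dose. The part of other cells in the receptor values was not tested.

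The genes whose pattern was most like that of the receptors were chosen by one measure: Pearson r over 15 arrays with group means taken off, the highest probe standing for its gene. Probes without a gene name (2102 of those tested) were left out; 5 of them had a higher r with alpha than any named gene, up to 0.905, and 0 with beta A. For receptor alpha the named genes were Cytochrome c oxidase subunit 2 (r of 0.865), ribosomal proteins similar to 60S L32 (0.864) and L12 (0.850), 60S ribosomal protein L35a (0.844) and Cytochrome c oxidase subunit 1 (0.843). Likeness was not shared by all probes of a gene: the 11 probes of Cytochrome c oxidase subunit 2 ran from -0.08 to 0.865 with a median of 0.796, and the 5 of subunit 1 from -0.64 to 0.843. The probe standing for subunit 1 was dim, with a mean level of -6.72. The probe standing for Cytochrome c oxidase subunit 2 was also lower on brighter arrays. Its r against log2 brightness was -0.828 with group means kept, where the mean of alpha had -0.752. For beta A the named genes were Probable ribosome biogenesis protein RLP24 (0.882), Signal peptide peptidase-like 2B (0.866), MAP/microtubule affinity-regulating kinase 3 (0.838), Cohesin subunit SA-2 (0.831) and Microtubule-associated proteins 1A/1B light chain 3A (0.828). None of these 10 probes was called at 50 or 250 ng/L, where 0.554% and 2.7% of all tested probes were. A count of 0 is near those shares and says little about these genes. Arrays and brightness are shared by all the points.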

How the data were processed

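The authors' scanner files were read with their processed signal, an intensity that Agilent Feature Extraction 10.7.1.1 had background-corrected, per the file headers; the authors' deposited table of log2 values served as an alternative. Log2 of the processed signal was averaged over the 2 spots of a probe without outlier spots, and the 75th percentile of each array was subtracted. Probes well above background on at least 5 of 15 arrays were tested (6145 of 7152, less 6 with both spots outliers on an array: 6139) with limma 3.58.1 in R 4.3.3 (lmFit, eBayes), a mean per group, and Benjamini-Hochberg adjustment over all probes at 0.05. Slide was a term or formed cells with group. Permutation tests used scipy 1.17.1, exact for group means and 100000 draws for correlations. The fit was tested on simulated data with known shifts. The simulated noise was independent between probes and held no brightness effect, unlike these arrays. The normexp alternative used the median signal (offset 50), since no mean signal was read. Named list members were those called, up to 6 by smallest p at 250 ng/L, or else the 2 with the smallest p. The members and lists were chosen with earlier results of these data known. The number of arrays limits the precision.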

Additional observations from a re-analysis of the deposited data

Results flagged for a closer look

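In each group of 5 arrays, the highest and lowest values were checked for distance from the others (Dixon's ratio of gap to range, critical value 0.71). Of 24 groups checked, 2 had such a value, and chance flags about 1 in 20 groups. On alpha probe 1867, replicate 1 at 50 ng/L had a level of 1.19, far below the other 4 arrays of its group (ratio 0.726). The same array had the lowest alpha minus beta A value of its group, -0.0638 (ratio 0.719). It is an array of slide 1 and the brightest of the 15, with a 75th percentile of 3575. Without it, the 50 ng/L difference from control was 0.94 on alpha probe 1256, 0.93 on alpha probe 1867 and 1.04 for alpha minus beta A, the highest values on leaving out 1 array. The lowest, 0.38, 0.34 and 0.42, were without control replicate 4.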

How the results depend on the processing

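No receptor or binding protein value passed its test under any alternative run: the smallest adjusted p over 1233 repeated values was 0.14, while 69 of them changed sign, and the cause was not tested. The exact permutation tests on either slide alone could not have passed, since groups of 2 or 3 arrays allow too few rearrangements. Quantile, median and cyclic loess scaling, the authors' deposited values, the normexp correction and both filters on dim probes changed no sign. With array weights the slide difference in the 250 ng/L shift of alpha probe 1256 was -0.33. With slide as a block alpha probe 1867 stood -0.026 from control at 250 ng/L. With only slide 1, the 50 ng/L shift was -0.71 and -0.55 for the alpha probes and 0.33 and 0.16 for beta A. There the 250 ng/L shift was -0.73 for alpha probe 1867 and 0.036 for beta A probe 2763, and 250 against 50 ng/L gave 0.80 for alpha probe 1256. The mean of both doses gave -0.31 and -0.64 for the alpha probes and 0.19 for beta A probe 2763. Receptor means on slide 1 were -0.63, -0.32 and 0.31 for alpha (50, 250, and 250 against 50 ng/L) and 0.25 for beta A at 50 ng/L. Alpha minus beta A was -0.88, -0.24 and 0.64. With only slide 2, 250 against 50 ng/L gave 0.13 and 0.034 for the beta A probes and 0.083 for their mean. Within 50 ng/L only, slide 2 stood 1.29 and 0.55 from slide 1 for alpha and -0.063 and -0.061 for beta A.

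With array brightness in the fit, added after seeing the data, beta A stood 0.065 and 0.030 from control at 50 ng/L. Alpha probe 1867 stood -0.25 at 250 ng/L and -0.089 for both doses, and alpha probe 1256 stood 0.11 at 250 against 50 ng/L. The slide difference in the 50 ng/L shift of the binding protein was 0.23. The count of all probes called at 50 ng/L was 34; it was 3 with only slide 1 and 20 with brightness. At 250 ng/L it was 166, 330 with array weights, 42 with only the 7 arrays of slide 1 and 109 with only the 8 of slide 2. Between the doses it was 67, and 0 with either slide alone. For the mean of both doses it was 94, 167 with array weights and 11 with only slide 1. Of estrogen-responsive probes 13 were called at 50 ng/L, and 1 with only slide 1. Of probes for estrogen synthesis and breakdown 0 were called at 250 ng/L, and 1 with quantile normalization, the authors' values or array weights. For the slide difference in the 50 ng/L shift it was 2, 4 with array weights and 1 with normexp, with brightness or over probes well above background on all arrays.

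Leaving out each array in turn gave these ranges. Without an array, the count at 50 ng/L was 22 (without control replicate 3) to 36, that between the doses 34 (without replicate 5 at 50 ng/L) to 66, that of estrogen synthesis and breakdown at 250 ng/L 0 to 1 (without replicate 3 at 250 ng/L), and that of the slide difference at 50 ng/L 1 to 10. At 50 ng/L alpha probe 1256 ran from 0.38 to 0.94, alpha probe 1867 from 0.34 to 0.93 and their mean from 0.36 to 0.94. Beta A probe 2763 ran from -0.17 to 0.059 at 50 ng/L, from -0.23 to 0.0017 for both doses, and from -0.43 to 0.063 for the slide difference at 250 ng/L. Beta A probe 2898 ran from -0.31 to 0.23 for that difference and from -0.50 to 0.035 for it over both doses. Alpha probe 1867 ran from -0.24 to 0.33 at 250 ng/L. Alpha probe 1256 ran from -0.46 to 0.12 at 250 against 50 ng/L, from -0.34 to 0.095 between slides, and from -0.11 to 1.1 for the slide difference at 250 ng/L. The binding protein ran from -0.13 to 0.25 at 250 against 50 ng/L, and its slide difference from -1.0 to 0.34 at 50 ng/L, from -0.75 to 0.16 at 250 ng/L and from -0.77 to 0.14 for both doses. The mean of alpha ran from -0.019 to 0.53 at 250 ng/L, that of beta A from -0.19 to 0.022 at 50 ng/L, and alpha minus beta A from -0.55 to 0.035 at 250 against 50 ng/L.

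No paired analysis was possible because the labels give no replicate numbers; the replicate numbers used here are accession order and pair nothing. The receptor probes were well above background on all arrays; with 5 arrays a group, the 95% interval of the alpha shifts spans about 2 log2 units.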
